A study of Homo sapiens with 10 samples.

Results

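The subunits of RNA polymerases I, II and III and 4 genes that work with or beside them were followed in MDA-MB-435 cells stimulated with hepatocyte growth factor (HGF) or transduced with integrin beta-4 (ITGB4). The members were 31 genes taken by name, and all probes annotated to them were used, which gave 33 probes of the 24136 on the array. Probes with a detection score of 0.99 or more on 1 or more of the 10 arrays were tested, which 31 member probes of 29 genes were, beside 14018 probes in all. MDA-MB-435 is an established human melanoma line. The groups were ITGB4 cells, untreated cells and cells after 1 h, 6 h or 24 h of HGF, each as biological duplicates on Illumina human BeadChips, 1 array per culture. All groups share the same parental line, and 1 untreated group serves as the reference for every treatment, so no time-matched control and no vector control entered the comparisons. The HGF dose, the vector and its promoter are not given in the sources used here.

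Eukaryotic cells divide transcription among specialised enzymes. Polymerase I makes the large ribosomal RNA precursor in the nucleolus, polymerase II makes messenger RNAs, and polymerase III makes transfer RNAs and other short RNAs. The enzymes have unique core subunits, while POLR1C and POLR1D are shared by polymerases I and III, and POLR2E, POLR2F, POLR2H, POLR2K and POLR2L are found in all of them. UBTF, RRN3 and TAF1D bring polymerase I to ribosomal DNA, and POLRMT is the separate polymerase of mitochondria. Output of polymerases I and III is known to follow growth factor signalling, and HGF acts through the MET receptor tyrosine kinase.

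Between 10226 and 11899 probes were detected per array, and replicate arrays correlated at 0.976 (HGF 24 h) to 0.989 (ITGB4) across kept probes. The arrays fell into 2 classes of detection score. In 4 of them, replicate 1 of untreated cells and of each HGF time, the 25th percentile of the score was between 0.00818 and 0.0225, against 0.248 to 0.388 in the other 6. Differences were therefore also taken within each class, 1 array against 1, for the HGF comparisons. These set replicate 1 against replicate 1 and 2 against 2, so a probe's 2 values average to its main log2 difference. Where the arrays of 2 groups did not overlap, both values had its sign by construction. The transduction check gave a normalised ITGB4 signal of 6788 and 5023 on the ITGB4 arrays, against 59.6 to 63.9 on the other 8, where the probe was not well above background. The log2 difference from untreated cells was 6.56 (limma, adjusted p = 8.6e-11). With the untreated signals raised to the detection limit, which was not tested, ITGB4 was at least 64.5-fold higher. Of 10 melanocyte lineage markers, 9 had a probe and all 9 were detected. Their summed signal was 18983 and 20521 at HGF 6 h, against 26437 and 30778 in untreated cells, and it was also lower in ITGB4 cells (24213 and 24641), at 1 h (23172 and 25507) and on 1 array at 24 h (21793, the other 26550). Of the markers of other cell types, 4 of 7 epithelial, 2 of 6 fibroblast and 3 of 6 immune genes were detected on at least 1 array. KRT18 (318 to 570), KRT14 (97.5 to 146), LUM (278 to 688), DCN (215 to 284), CD68 (144 to 255) and LYZ (125 to 211) were detected on all 10, while EPCAM, CDH1, COL1A1, CD3E and CD14 were detected on none. The summed epithelial signal was 984 to 1098 at 6 h, against 864 to 901 in untreated cells. The fibroblast sum was 797 to 897 at 6 h, against 1077 to 1161, and both sums lay on the same side of untreated cells at 1 h. The fibroblast sum was also lower at 24 h (819 to 964) and in ITGB4 cells (945 to 1040), where the epithelial sums overlapped those of untreated cells. The part of these shifts in the 6 h results was not tested.

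The results turn on genes whose signal stood apart at 6 h, and the 250 bases upstream of the start of 4 of them are printed here, from RefSeq on GRCh38.p14, to show what lies before genes that moved together or in opposition. POLR1B is at chr2:112541786-112542035 (plus strand), POLR3B at chr12:106357498-106357747 (plus), POLR3K at chr16:53609-53858 (minus) and POLR3GL at chr1:145964440-145964689 (plus). Capitals mark the letters GGGCGG (reverse strand CCGCCC), of CCGGAAG (reverse strand CTTCCGG) and of CCAAT (reverse strand ATTGG).
POLR1B: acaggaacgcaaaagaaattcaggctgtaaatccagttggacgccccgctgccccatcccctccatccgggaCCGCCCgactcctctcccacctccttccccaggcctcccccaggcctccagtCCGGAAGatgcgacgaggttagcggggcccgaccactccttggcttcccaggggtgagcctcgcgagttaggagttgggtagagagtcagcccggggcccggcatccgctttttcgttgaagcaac
POLR3B: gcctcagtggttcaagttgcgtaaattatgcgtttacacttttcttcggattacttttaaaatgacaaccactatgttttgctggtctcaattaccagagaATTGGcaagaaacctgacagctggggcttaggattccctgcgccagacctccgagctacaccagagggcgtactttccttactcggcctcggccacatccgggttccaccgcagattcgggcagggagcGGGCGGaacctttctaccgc
POLR3K: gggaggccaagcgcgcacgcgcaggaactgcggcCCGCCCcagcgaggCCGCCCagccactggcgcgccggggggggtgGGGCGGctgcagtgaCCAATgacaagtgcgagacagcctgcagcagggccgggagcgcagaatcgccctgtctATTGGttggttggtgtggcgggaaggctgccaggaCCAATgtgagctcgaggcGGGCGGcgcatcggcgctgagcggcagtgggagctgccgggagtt
POLR3GL: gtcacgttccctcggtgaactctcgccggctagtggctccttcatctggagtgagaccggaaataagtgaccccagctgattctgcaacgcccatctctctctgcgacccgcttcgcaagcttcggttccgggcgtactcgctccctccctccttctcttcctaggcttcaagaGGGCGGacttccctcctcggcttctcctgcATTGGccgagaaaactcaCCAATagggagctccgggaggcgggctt
Each of the 4 held GGGCGG, and POLR3B, POLR3K and POLR3GL also held CCAAT, so POLR3GL shared both motifs with genes whose signal went the other way. Of the other genes with a called probe, POLR1D, POLR2D and UBTF held GGGCGG, and POLR1D also held CCAAT. POLR3F held none of these motifs. Promoters of 23 of the 31 members were matched by symbol. GGGCGG, the letters of a GC box, was in 17 of the 23 (73.9%), against 53.7% of 22199 protein-coding promoters. CCGGAAG, the letters of an ETS-type site, was in 8 (34.8%), against 10.7%, and CCAAT in 5 (21.7%), against 32.7%. The E-box CACGTG was in 2 (8.7%), against 7.37%, and TATAAA in none of the 23, against 9%. No marked motif overlapped another in the 4 promoters printed, and the counts describe letters in a window, not binding.

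Signals are given on the quantile normalised linear scale, and differences on the log2 scale with the standard error (SE) of the limma fit. Calls were made where limma's p, adjusted after Benjamini and Hochberg across the 14018 probes of a contrast, was under 0.05. All members except POLR1A, POLR3A and CRCP were detected on every array. POLR1A, which forms the active centre of polymerase I with POLR1B, was detected on 6 arrays, with signals of 73.1 to 102 near the detection limit of 89.6. POLR3A, the matching subunit of polymerase III, and CRCP, one of its stalk subunits, were detected on none and were not tested. The signal of a probe depends on its sequence, so levels were compared between arrays and not between genes. In RNA of a whole culture, a change in the share of expressing cells and a change in RNA per cell cannot be told apart.

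Members were called in the comparisons of HGF times with each other and not in those with untreated cells. At 24 h against 6 h, 7 of 31 member probes were called (22.6%), 5 lower and 2 higher, beside 8.31% of all probes (4.07% lower, 4.24% higher). Between 6 h and 1 h 3 were called (9.68%), 2 higher and 1 lower at 6 h, beside 4.67% of all probes (2.24% higher, 2.43% lower). Comparing 6 h with untreated cells, none of the 31 was called, beside 1.9% of all probes (0.97% higher, 0.935% lower), and the lowest adjusted p was 0.055. An unadjusted p under 0.05 was reached there by 11 members (35.5%), against 16% of all probes, and by 13 (41.9%, against 20.5%) and 11 (35.5%, against 21.3%) in the comparisons of 6 h with 1 h and of 24 h with 6 h. At 1 h, at 24 h and in ITGB4 cells none was called against untreated cells, where 0%, 0% and 0.00713% of all probes were. The comparisons at 6 h share the same pair of arrays and are not independent of each other.

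Counting probes whose arrays did not overlap between groups gave the following numbers. After 6 h both HGF arrays lay above both untreated arrays for 20 of the 31 member probes and below them for 4, so that 77.4% did not overlap, beside 44.6% of all probes (20.7% higher, 23.9% lower). After 1 h the counts were 16 higher and 5 lower, beside 44.2% of all probes (24.1% higher, 20.1% lower). After 24 h they were 4 higher and 2 lower, beside 29.6% (14.9% and 14.7%), and in ITGB4 cells 3 higher and 3 lower, beside 25.7% (13.6% and 12.1%). For 6 h against 1 h, 15 were higher and 8 lower, beside 48.5% (22.7% and 25.9%). For 24 h against 6 h, 4 were higher and 17 lower, beside 42.8% (22.5% and 20.3%). The members' share without overlap was thus 67.7% or more in each comparison that holds the 1 h or 6 h arrays and 19.4% at 24 h and in ITGB4 cells.

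**Figure D1:**
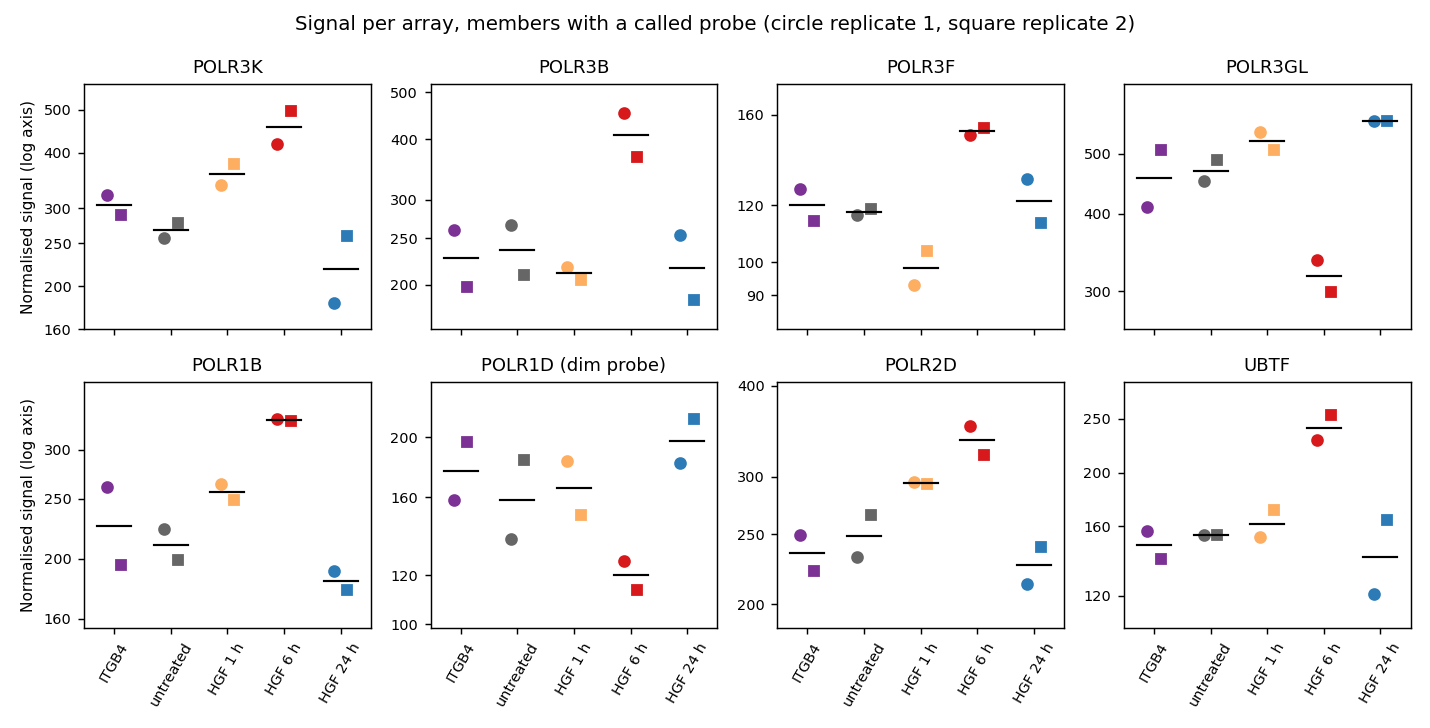
Normalised signal per array on a log2-spaced axis for the 8 genes with a called probe, with ITGB4 cells and untreated cells left of the HGF times. Circles are replicate 1, squares replicate 2 and the line is the geometric mean of the 2 arrays. Both 6 h arrays stood above all other arrays for POLR3K, POLR3B, POLR3F, POLR1B, POLR2D and UBTF, and below all others for POLR3GL and the dim POLR1D probe.

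Among polymerase I genes, POLR1B was highest at 6 h on both arrays. Its signal was 261 and 195 in ITGB4 cells, 224 and 199 in untreated cells, 265 and 249 at 1 h, 336 and 334 at 6 h and 191 and 178 at 24 h. The 6 h arrays stood above all others, and the 24 h arrays below the untreated ones. At 24 h POLR1B fell by 0.86 on the log2 scale against 6 h (SE 0.17, adjusted p = 0.009), which is 1.82-fold lower. Within the array classes the difference was -0.82 (low-score) and -0.91 (high-score). Against untreated cells the 6 h level was 1.59-fold higher, with a log2 difference of 0.67 (SE 0.17, adjusted p = 0.067), short of the threshold.

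POLR1E, a subunit that forms a dimer with POLR1G on the polymerase I surface, was not called. It had 564 and 640 in ITGB4 cells, 445 and 524 in untreated cells, 558 and 595 at 1 h, 637 and 667 at 6 h and 512 and 679 at 24 h. Both 6 h arrays exceeded the untreated ones, with a log2 difference of 0.43 (SE 0.18, adjusted p = 0.24). The 24 h arrays lay far apart and on both sides of the 6 h arrays, so no return could be read from them.

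POLR1C and POLR1D form the assembly platform shared by polymerases I and III, and each had 2 probes. The bright POLR1C probe read 696 and 732 in ITGB4 cells, 797 and 788 in untreated cells, 811 and 879 at 1 h, 1019 and 1241 at 6 h and 679 and 911 at 24 h. It was highest on both 6 h arrays, 0.51 above untreated cells on the log2 scale (SE 0.18, adjusted p = 0.17), and 0.52 lower at 24 h than at 6 h (a log2 difference of -0.52, adjusted p = 0.099). The dim POLR1C probe, with signals of 132 to 205, also had its highest values at 6 h. The 2 probes of POLR1D disagreed. The bright one, annotated to the transcript NM_015972, read 1966 and 1745 in ITGB4 cells, 2263 and 2003 in untreated cells, 2726 and 2123 at 1 h, 2050 and 1990 at 6 h and 2198 and 2025 at 24 h, and its arrays overlapped at 6 h (log2 difference -0.08, SE 0.17, adjusted p = 0.91). The dim one, annotated to NM_152705, read 159 and 197 in ITGB4 cells, 137 and 184 in untreated cells, 183 and 150 at 1 h, 126 and 114 at 6 h and 182 and 214 at 24 h. It was lowest at 6 h, and at 24 h it rose 1.65-fold against 6 h (log2 difference 0.72, SE 0.19, adjusted p = 0.037). The 2 probes are annotated to different transcripts, so the call is given for that probe and not for POLR1D as a whole. Whether each probe reads only its annotated transcript was not tested.

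UBTF, the HMG box protein that binds ribosomal DNA promoters and gene bodies, stood apart at 6 h. Its signal was 157 and 140 in ITGB4 cells, 154 and 154 in untreated cells, 153 and 171 at 1 h, 229 and 254 at 6 h and 121 and 164 at 24 h. The untreated arrays were nearly identical, the 1 h arrays lay on either side of them and the 6 h arrays well above. UBTF fell at 24 h, 1.71-fold lower than at 6 h (log2 difference -0.78, SE 0.18, adjusted p = 0.017), and the 24 h arrays came back to either side of the untreated level. At 6 h it was 1.56-fold above untreated cells (log2 difference 0.65, SE 0.18, adjusted p = 0.082). RRN3 and TAF1D were also highest at 6 h on both arrays and were not called. At 1 h they averaged 299 and 150.0, against 326 and 205 in untreated cells, and so lay lower there, while UBTF averaged 162, against 154. RRN3, TAF1D and UBTF were each above untreated cells without overlap at 6 h, by log2 differences of 0.30 to 0.65, and below the 6 h arrays without overlap at 24 h, by -0.78 to -0.46. RRN3 has close pseudogene copies, and its probe may read them too.

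Of the 8 subunits found only in polymerase III that were tested, 4 were called in some comparison. At 6 h against 1 h 2 were higher and 1 lower, beside 4.67% of all probes called. At 24 h against 6 h 1 was higher and 2 lower, beside 8.31%. The share of all probes called in some comparison was not counted. POLR1D, called by 1 of its probes, is shared with polymerase I. The 4 did not all go one way. POLR3K, a small subunit needed for RNA cleavage and for termination, had the largest difference of any member over the 6 comparisons. It read 321 and 290 in ITGB4 cells, 257 and 278 in untreated cells, 339 and 378 at 1 h, 418 and 498 at 6 h and 184 and 259 at 24 h. Signals were higher than in untreated cells at 1 h and higher still at 6 h, with no overlap between these groups. At 24 h POLR3K fell 2.09-fold against 6 h (log2 difference -1.06, SE 0.19, adjusted p = 0.005), with -1.18 between the low-score arrays and -0.94 between the high-score ones. At 6 h it was 1.71-fold above untreated cells (log2 difference 0.77, SE 0.19, adjusted p = 0.055), the member nearest to the threshold in that comparison.

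POLR3B, which forms the active centre of polymerase III with POLR3A, stood apart on the 6 h arrays. It had 260 and 198 in ITGB4 cells, 267 and 210 in untreated cells, 217 and 205 at 1 h, 454 and 368 at 6 h and 253 and 186 at 24 h. The 6 h arrays stood above the other 8, which overlapped one another. POLR3B rose 1.93-fold at 6 h against 1 h (log2 difference 0.95, SE 0.21, adjusted p = 0.024). It fell 1.88-fold at 24 h against 6 h (log2 difference -0.91, SE 0.21, adjusted p = 0.016). Against untreated cells it was 1.73-fold higher at 6 h (log2 difference 0.79, SE 0.21, adjusted p = 0.07), with 0.77 between low-score arrays and 0.81 between high-score arrays.

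POLR3F belongs to the initiation subcomplex of polymerase III, beside POLR3C and either POLR3G or POLR3GL. It read 126 and 114 in ITGB4 cells, 116 and 118 in untreated cells, 92.9 and 104 at 1 h, 150.0 and 154 at 6 h and 131 and 113 at 24 h. The 1 h arrays were the lowest and the 6 h arrays the highest. POLR3F rose 1.55-fold at 6 h against 1 h (log2 difference 0.63, SE 0.16, adjusted p = 0.04). It was 0.37 above untreated cells at 6 h on the log2 scale (SE 0.16, adjusted p = 0.26), and its signals were close to the detection limit.

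POLR3GL, the form of that subunit found in most differentiated tissues, ran opposite to POLR3K, POLR3B and POLR3F. It had 411 and 507 in ITGB4 cells, 451 and 488 in untreated cells, 543 and 506 at 1 h, 337 and 299 at 6 h and 564 and 564 at 24 h. Both 6 h arrays were below every other array, and both 24 h arrays were above every other array. POLR3GL fell 1.65-fold at 6 h against 1 h (log2 difference -0.72, SE 0.16, adjusted p = 0.027). It rose 1.78-fold at 24 h against 6 h (log2 difference 0.83, SE 0.16, adjusted p = 0.0083). Against untreated cells the 6 h level was 1.48-fold lower (log2 difference -0.56, SE 0.16, adjusted p = 0.096). Its counterpart POLR3G, known for high levels in undifferentiated and tumour cells, was looked at after its values were seen. It was also lower at 6 h, with 296 and 292, against 402 and 335 in untreated cells, but not called. It read 326 and 307 at 1 h, also below the untreated arrays, and 362 and 242 at 24 h. Unlike POLR3GL it therefore did not stand apart at 6 h.

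Polymerase II held 1 called gene, POLR2D, which together with POLR2G makes the stalk of the enzyme. POLR2D had 249 and 223 in ITGB4 cells, 233 and 266 in untreated cells, 295 and 293 at 1 h, 352 and 321 at 6 h and 214 and 240 at 24 h. It was highest at 6 h and fell 1.49-fold at 24 h against 6 h (log2 difference -0.57, SE 0.16, adjusted p = 0.041). Its partner POLR2G moved the other way. POLR2G read 2094 and 2120 in ITGB4 cells, 1915 and 2224 in untreated cells, 2378 and 2586 at 1 h, 1510.1 and 1734 at 6 h and 1850.4 and 2369 at 24 h, with the 6 h arrays below all others. Neither its difference at 6 h against 1 h (log2 -0.62, SE 0.17, adjusted p = 0.058) nor that against untreated cells (log2 -0.35, SE 0.17, adjusted p = 0.34) passed the test.

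POLR2A, the largest subunit, carries the repeated tail that is phosphorylated during transcription. Its signal was 542 and 501 in ITGB4 cells, 430.0 and 555 in untreated cells, 764 and 584 at 1 h, 681 and 757 at 6 h and 557 and 643 at 24 h. The 1 h, 6 h and 24 h arrays all exceeded the untreated ones, and at 6 h the log2 difference was 0.56 (SE 0.19, adjusted p = 0.15). POLR2C, part of the assembly platform of polymerase II, read 222 and 231 in ITGB4 cells, 171 and 248 in untreated cells, 254 and 267 at 1 h, 291 and 371 at 6 h and 221 and 270.2 at 24 h. Its log2 difference at 6 h was 0.68 (SE 0.20, adjusted p = 0.1). The untreated arrays of both genes differed more from each other than those of UBTF or POLR3K did.

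POLR2L, a small subunit of all 3 enzymes, was the shared subunit with the largest difference at 6 h. It had 1814 and 1714 in ITGB4 cells, 1199 and 1819 in untreated cells, 1585 and 1793 at 1 h, 1947 and 2465 at 6 h and 979 and 1793 at 24 h. Both 6 h arrays were above the rest, but replicates lay far apart within the untreated and 24 h groups, with the low-score array the lower one in untreated cells and at each HGF time. The log2 difference was 0.57 at 6 h against untreated cells (SE 0.26, adjusted p = 0.31) and -0.73 at 24 h against 6 h (SE 0.26, adjusted p = 0.12). The other shared subunits, POLR2E, POLR2F, POLR2H and POLR2K, had log2 differences from -0.15 to 0.25 at 6 h, and none was called in any comparison.

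**Figure D2:**
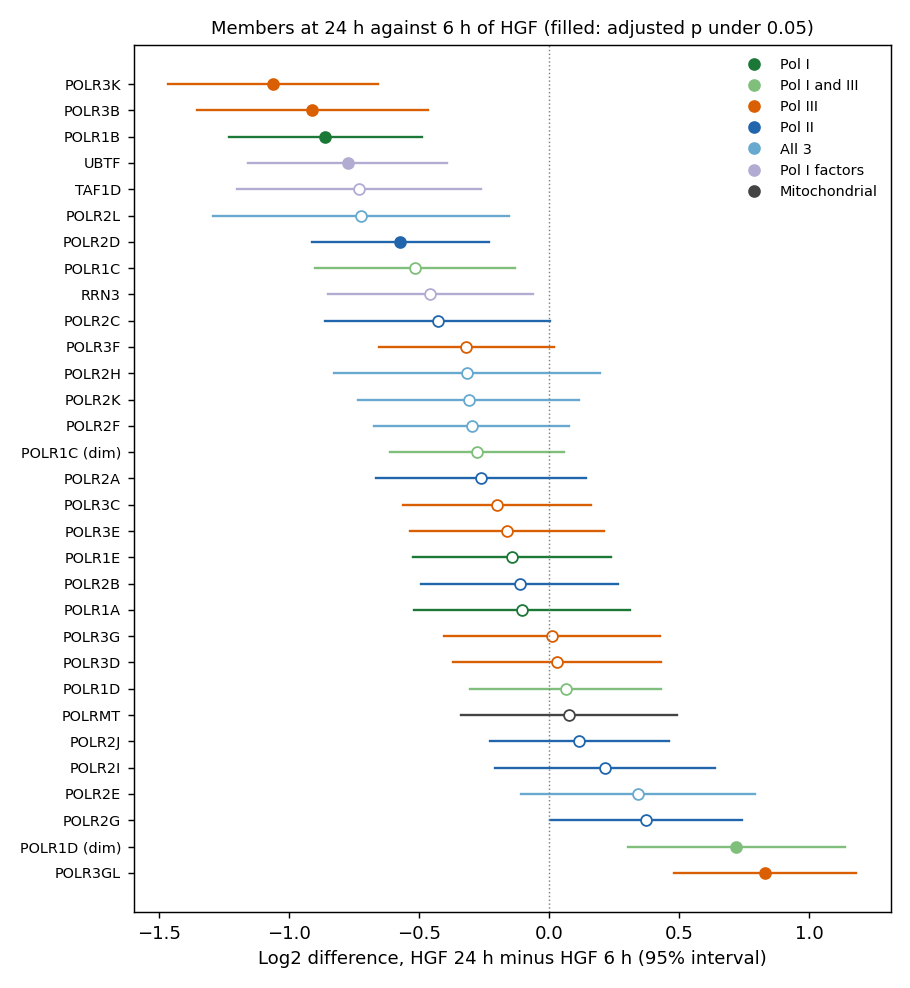
Log2 difference of every kept member probe at HGF 24 h against HGF 6 h, with its 95% interval, ordered by size, coloured by polymerase and filled where the adjusted p was under 0.05. The 5 filled points on the left are POLR3K, POLR3B, POLR1B, UBTF and POLR2D, and the 2 on the right are the dim POLR1D probe (0.72) and POLR3GL (0.83).

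Splitting arrays by detection score changed how many members passed. With the class as a term in the fit, 8 members were called at 6 h against untreated cells, POLR1B, POLR1C, POLR2C, POLR2L, POLR3B, POLR3K and UBTF higher and POLR3GL lower, beside 7.6% of all probes. The same fit called 7 members at 6 h against 1 h (12.1% of all probes) and 10 at 24 h against 6 h (15.4%). All 10 calls made without the term were also made with it. The calls rest on few arrays. Leaving out either 6 h or either 1 h array removed all 3 calls at 6 h against 1 h. The share of all probes called there was then 0.164% without 6 h replicate 1, 0.549% without 6 h replicate 2, 0% without 1 h replicate 1 and 4.64% without 1 h replicate 2. Leaving out 6 h replicate 1 left POLR3GL and POLR3K called at 24 h against 6 h (3.1% of all probes), and leaving out 6 h replicate 2 left POLR3B (2.2%). Leaving out either 24 h array brought POLR3B, POLR3K and UBTF past the threshold at 6 h against untreated cells, where 3.5% of all probes were then called.

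Set against polymerase II, the subunits of polymerases I and III had a higher median difference from untreated cells at 6 h and a lower one at 1 h and 24 h, while the gap taken directly between 6 h and 1 h was negative. Over the brightest probe of each gene, the 13 polymerase I and III subunits had a median log2 difference from untreated cells of 0.33 at 6 h, against 0.16 for the 7 polymerase II subunits and 0.01 for all probes. At 1 h the medians were 0.18 for polymerases I and III, against 0.34 for polymerase II, and at 24 h -0.01, against 0.19. The gap between the classes was thus -0.17 at 1 h, 0.17 at 6 h and -0.20 at 24 h. With the subunits of all 3 enzymes counted with polymerase II, the median of the then 12 genes was 0.25 at 1 h and -0.02 at 24 h, so that the gap shrank to -0.08 at 1 h and was no longer negative at 24 h (0.004). Taken directly, the gap was -0.09 at 6 h against 1 h (medians 0.01 for polymerases I and III, against 0.11 for polymerase II) and -0.05 at 24 h against 6 h (-0.16, against -0.11). Within the array classes these direct gaps were 0.12 (low-score) and 0.16 (high-score) at 6 h against 1 h, the opposite sign, and -0.16 and 0.06 at 24 h against 6 h. The pooled SD of the gap over arrays of a group was 0.08. Between low-score arrays alone the gap from untreated cells was -0.08 at 1 h, 0.07 at 6 h and -0.06 at 24 h. Between high-score arrays it was -0.02, 0.22 and -0.11. The sign was the same in both classes at each time, but only the gaps of 0.22 and -0.11 were larger than that SD. On the untreated arrays themselves, set against their own mean, the gap was 0.083 and -0.083, so the sign of the smaller gaps is not secure. Without untreated replicate 1 the gap was -0.02 at 1 h and 0.07 at 24 h, which turned the sign at 24 h.

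The class medians hide members on both sides of zero. Of the 13 polymerase I and III subunits, 9 were above 0 at 6 h and 4 below, from -0.56 (POLR3GL) to 0.79 (POLR3B). Of the 7 polymerase II subunits, 5 were above 0 and 2 below, from -0.35 (POLR2G) to 0.68 (POLR2C). The ranges of the classes overlapped over most of their width.

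**Figure D3:**
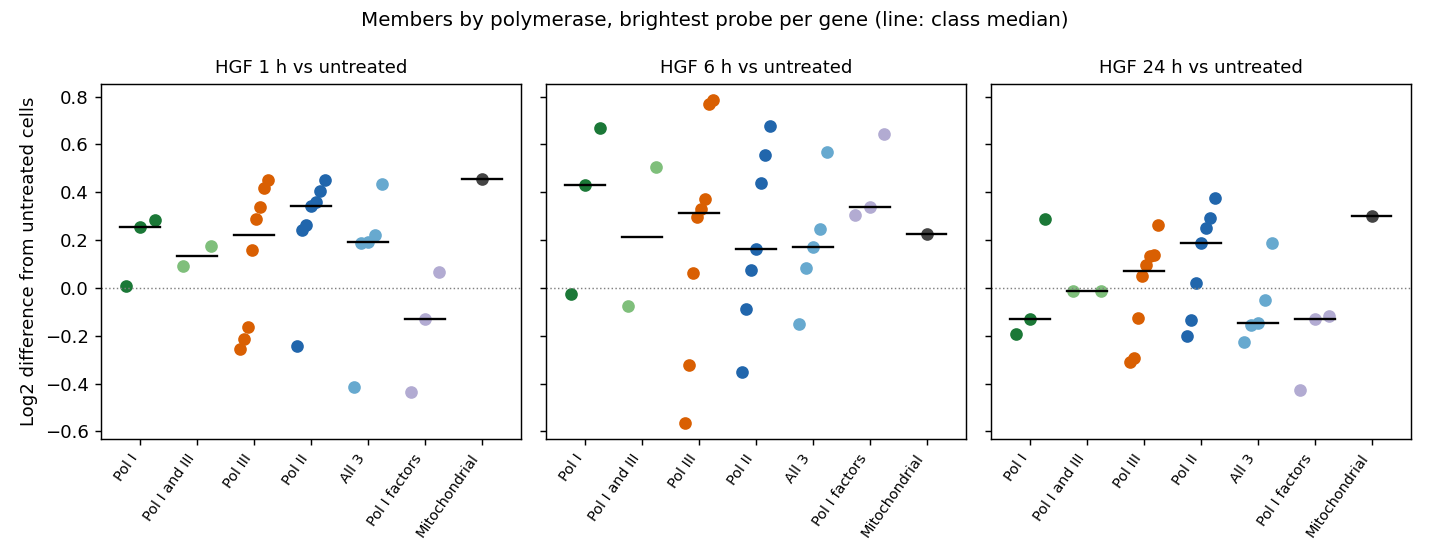
Log2 difference from untreated cells of each member gene (brightest probe), by the polymerase it belongs to, at 1 h, 6 h and 24 h of HGF, with the class median as a line. At 6 h the polymerase III points run from -0.56 to 0.79 and the polymerase II points from -0.35 to 0.68, and all 3 polymerase I factors lie above 0.

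**Figure D4:**
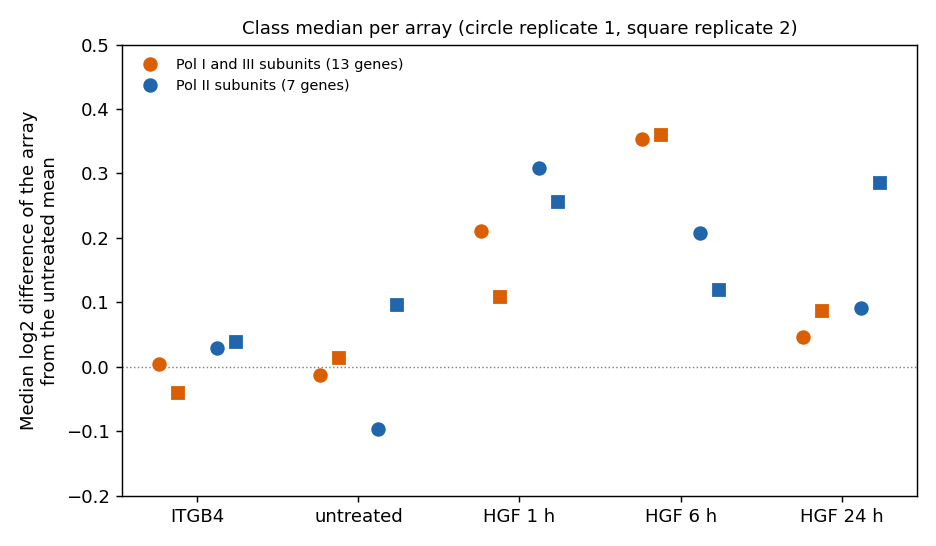
Median log2 difference from the untreated mean over 13 polymerase I and III subunits (orange) and 7 polymerase II subunits (blue), for each array, with circles for replicate 1 and squares for replicate 2. At 6 h both orange points, 0.35 and 0.36, lie above both blue points, 0.21 and 0.12, and at 1 h both lie below.

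At 1 h of HGF no member passed the test, and 5 reached an unadjusted p under 0.05 (16.1%, beside 13.5% of all probes), all of them higher. They were POLR3D and POLR3K of polymerase III, POLR2A and POLR2J of polymerase II, and POLRMT, with log2 differences of 0.36 to 0.45 and adjusted p of 0.31 to 0.35. POLRMT had 543 and 397 at 1 h, against 324 and 355 in untreated cells. The low-score and high-score arrays gave unlike sizes for POLR2A (0.83 and 0.07), POLRMT (0.75 and 0.16) and POLR3D (0.65 and 0.25), and like sizes for POLR3K (0.40 and 0.44) and POLR2J (0.32 and 0.40). POLR2J has close paralogous copies, which its probe may also read.

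After 24 h of HGF the members did not stand apart from untreated cells. Their log2 differences from untreated cells ran from -0.43 to 0.38 over 29 genes, none reached an unadjusted p under 0.05 (5.71% of all probes did), and 25 of the 31 probes had overlapping arrays. The median over member genes was -0.01, against 0.30 at 6 h and 0.22 at 1 h. In ITGB4 cells the log2 differences from untreated cells ran from -0.30 to 0.32, with a median of 0.03, none reached an unadjusted p under 0.05 (0.835% of all probes did), and the polymerase I and III median was -0.05, against 0.05 for polymerase II. The transduced arrays are both of the high-score class, and with untreated replicate 2, of that class, as the only reference the gap between the polymerase classes was 0.10 in place of -0.10.

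Genes that work with the polymerases were counted from lists of 97 genes, of which 83 were tested. These were other subunits, initiation factors of polymerases I and III, general and elongation factors of polymerase II, assembly factors and mitochondrial transcription factors. In the 6 h cells 1 of 83 was called higher and 1 lower than in untreated cells, beside 0.97% and 0.935% of all probes, so the count was near the background. POLR1G, the partner of POLR1E in polymerase I, rose by 0.99 on the log2 scale (SE 0.17, adjusted p = 0.019), with 381 and 415 at 6 h, against 199.8 and 201 in untreated cells. TCEA2, a tissue-restricted form of the elongation factor TFIIS, fell by 0.92 (SE 0.17, adjusted p = 0.019), with 188 and 178, against 372 and 323. That is its bright probe, and a dim TCEA2 probe, detected on 2 arrays, had a log2 difference of 0.016.

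Between HGF times more of these partners were called, as were more of all probes (4.67% at 6 h against 1 h and 8.31% at 24 h against 6 h). At 6 h against 1 h, 7 of 83 were higher and 2 lower, beside 2.24% and 2.43% of all probes. The largest were SSB, the La protein that binds the ends of polymerase III transcripts (1.17), POLR1F, a stalk subunit of polymerase I (1.04), TFAM, which packages mitochondrial DNA (1.03), and TCEA2 (-0.88), followed by MTERF1, which binds a mitochondrial terminator (0.86), and TAF9, a subunit of TFIID (0.83). At 24 h against 6 h, 6 were lower and 1 higher, beside 4.07% and 4.24% of all probes, so the total was near the background. POLR1G (-1.18), GTF3C6, a subunit of the polymerase III factor TFIIIC (-0.98), POLR1F (-0.92), TFAM (-0.90) and MTERF1 (-0.74) fell, and TCEA2 rose (1.07). Of the 6 mitochondrial factors tested, 3 were called higher at 6 h against 1 h and 2 lower at 24 h against 6 h. POLRMT itself was called in neither comparison. Against untreated cells, SSB, POLR1F, TFAM, MTERF1 and TAF9 had log2 differences of -0.86, -0.39, -0.55, -0.63 and -0.42 at 1 h. At 6 h these were 0.31, 0.655, 0.48, 0.23 and 0.41, and none of them was called at either time. The TAF9 values are of its brightest probe, and its other probes gave 0.363 and 0.002 at 6 h against untreated cells.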

How the data were processed

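Total RNA of 10 cultures, 2 for each of 5 groups named by the labels, was read on 1 array each. The authors deposited per array the bead-averaged intensity of each probe on a linear scale, neither background subtracted nor normalised, with bead numbers (median 26 to 32 per probe), written by BeadStudio 1.5.1.3 per the submitters' notes. The detection score, a fraction from 0 to 1, was also deposited by the authors as that software made it. In a deposited value table the authors had corrected the intensities for background and scaled them on rank-invariant genes. Its column for ITGB4 replicate 2 was not a straight line of that sample's scanner intensities (Spearman 0.968), so the table served only as an alternative.

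Here 22 control probes and 9 probes without an intensity on some array were set aside. The remaining 24105 were quantile normalised and brought to log2 with no offset, and probes with a detection score of 0.99 or more on at least 1 array were kept (14018, 58.2%). Group means were fitted over all 10 arrays with limma 3.58.1 in R 4.3.3 and 6 contrasts tested (two-sided, moderated, 5 residual and 8.16 prior degrees of freedom). The number of arrays limits the precision. Symbols were updated through Entrez numbers. Promoters came from RefSeq, GRCh38.p14, while the build behind the array files is not given in the sources used here.

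Values on every array are given for members called in any contrast and, up to 14 genes, those with the largest difference at 6 h, and at most 6 called pathway genes per contrast are named. The members and lists were chosen with earlier results of these data known, as was the split of arrays by detection score. Replicates are biological duplicates per the series' design text. Alternatives covered background correction, scaling, floors, filters, the value table, each array left out and blocks. A further one was an unmoderated pooled-variance test with the same p adjustment. The study's own test adds an optional fold-change threshold and a false discovery rate from permutations, and was not run.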

Additional observations from a re-analysis of the deposited data

Results flagged for a closer look

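The difference between HGF times passed the limma test itself for 10 member probes and contrasts, so that the effect of HGF against untreated cells differed between those times. All of them compare the same 6 h arrays. Among the alternatives, the blocks, the detection filters, the unmoderated test and leaving out arrays of other groups do not change the estimate. For those the sign was fixed in advance, and the blocks by replicate number and by array class, counted apart, are nearly the same fit. At 6 h against 1 h these were POLR3B (0.951 on the log2 scale), POLR3F (0.628) and POLR3GL (-0.724). Over 20 alternatives the sign held for each, and the call held in 14 for POLR3B, in 10 for POLR3F and in 15 for POLR3GL. Their adjusted p ran from 0.00073 to 0.23, from 0.0092 to 0.34 and from 0.0052 to 0.28.

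At 24 h against 6 h they were POLR3K (-1.063), POLR3B (-0.911), POLR1B (-0.861), UBTF (-0.776), POLR2D (-0.573), the dim POLR1D probe (0.719) and POLR3GL (0.829). Over 19 alternatives the sign held for each, again fixed in advance where the setting does not change the estimate. The call held in 17 for POLR3K and POLR3GL, in 16 for POLR1B, in 15 for POLR3B, in 14 for UBTF, in 12 for the POLR1D probe and in 7 for POLR2D. The adjusted p ran from 3e-04 to 0.072 for POLR3K, from 0.0012 to 0.084 for POLR3GL and from 0.013 to 0.24 for POLR2D. Groups of 2 arrays are too small for a check of single outlying arrays.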

How the results depend on the processing

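No member was called at 1 h, at 24 h or in ITGB4 cells against untreated cells under any alternative run. At 1 h the replicate number as a block called 427 of the 14018 probes (3.05%), none of them a member. The value table gave 0.0143% of all probes at 1 h and at 24 h. Other settings that kept every array gave 0% at both times, and in ITGB4 cells such settings called 1 probe. Apart from that block almost no probe passed, so a count of 0 members says little there. At 6 h against untreated cells the count of 0 became 1 with normexp background correction (2.31% of all probes called, against 1.9%), 2 with probes detected on both arrays of a group (3.52%), 2 in the value table (3.79%), 8 with the array class as a term (7.6%) and 3 without both 24 h arrays (3.5%), an alternative chosen after seeing the data. Leaving out single arrays gave 0 to 3 (0% to 3.5%). At 6 h against 1 h the count of 3 became 5 in the value table (4.67% of all probes, the same share as from the scanner intensities), 7 with the array class (12.1%), 6 without both 24 h arrays (7.4%) and 0 with the unmoderated pooled-variance test (0%), and leaving out single arrays gave 0 to 6 (0% to 7.4%). At 24 h against 6 h the count of 7 became 0 with the unmoderated test, which called 107 of 14018 probes there, and 1 to 7 with single arrays left out (2.2% to 7.62%). Arms of 1 array were assumed to vary like the other groups, and apart from such losses of samples the causes were not tested.

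The labels do not say that equal replicate numbers share a culture day, and each comparison has only 2 pairs. Replicate differences correlated between groups at -0.063 to 0.661. With the replicate number as a block, 7 members were called at 6 h, 8 at 6 h against 1 h and 10 at 24 h against 6 h (all probes 1089, 1871 and 2245). Each group holds an array of each replicate number, so this block could not move the class gaps. Replicate number and array class divide the arrays alike except for ITGB4 replicate 1. The blocks are therefore nearly the same fit, and an effect of the class cannot be told apart from one of the replicate.

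The gap of polymerase I and III minus polymerase II at 1 h (-0.166) moved to -0.078 with the shared subunits counted with polymerase II, to -0.077 between low-score arrays and -0.023 between high-score ones, and ran from -0.174 to -0.019 with single arrays left out. The gap at 6 h (0.169) was 0.066 within the low-score arrays. The gap at 24 h (-0.2) moved to 0.004 with the shared subunits, -0.055 and -0.109 within the classes, and ran from -0.2 to 0.069 with single arrays left out. The gap in ITGB4 cells (-0.098) moved to -0.009 in the value table, 0.046 with the array class as a term and 0.097 within the high-score arrays, and ran from -0.111 to 0.097. Signs turned for 4 uncalled differences. The bright POLR1D probe at 6 h (-0.076) gave 0.133 in the value table and, with single arrays left out, -0.164 to 0.012, and at 24 h against 6 h (0.063) gave -0.050 in the value table. POLR2A at 6 h against 1 h (0.105) gave -0.035 with median scaling and -0.090 to 0.300 with arrays left out, and POLR1E at 24 h against 6 h (-0.144) gave -0.348 to 0.060. Signals near the detection limit of 89.6, as for POLR1A and POLR3F, limit what could be measured.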
